A study of Mus musculus with 12 samples.

Results

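The genes Dusp1, Dusp2, Dusp4, Dusp5, Dusp6 and Dusp16, which encode dual-specificity phosphatases, and the early response genes Ier2, Ier3, Egr1 and Egr2 were described in cultured mouse macrophages with and without the histone methyltransferase DOT1L. These 10 genes were listed by name, not by a threshold on their values, and are 10 of the 24445 genes measured. All 10 passed the filter on low counts in every comparison. Messenger RNA was sequenced from bone marrow cells of C57BL/6 mice grown into macrophages in L929-conditioned medium, which supplies the macrophage growth factor M-CSF. There were 3 libraries each of LPS-treated KO, LPS-treated WT, untreated KO and untreated WT cells. KO cells came from mice with a myeloid deletion of DOT1L, for which the labels name Lyz2, a lysozyme gene of myeloid cells, as the gene of the strain. WT cells came from mice with intact DOT1L, and whether these carried a Lyz2 allele that differs from the normal one is not given in the sources used here. LPS, a component of the outer membrane of Escherichia coli that activates the receptor TLR4, was given at 10 ng/mL for 3 hours. The labels call the libraries of a group biological replicates.

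Dual-specificity phosphatases of the MAPK phosphatase class remove phosphate from both the threonine and the tyrosine that switch a MAP kinase on. Many of them are induced by the kinases they switch off and so close a negative feedback loop, which in macrophages limits the output of inflammatory cytokines after TLR4 activation. Immediate-early genes such as Egr1, Egr2, Ier2 and Ier3 are switched on within minutes of a stimulus, before new protein is made, and many are off again soon after. A sample at 3 hours therefore comes after the early peak that such genes are known for.

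The sequences just upstream of 4 of the genes are shown because these genes took different courses with LPS: Ier3, Dusp2 and Dusp1 were higher, and Dusp6 was lower. Each is the 250 bases before the RefSeq transcription start on GRCm38.p6, the assembly of the mm10 build, written 5′ to 3′ on the strand of the gene, with motif matches in capitals. The windows are chr17:35821463-35821712 on the plus strand for Ier3, chr2:127335909-127336158 on the plus strand for Dusp2, chr17:26508473-26508722 on the minus strand for Dusp1 and chr10:99262981-99263230 on the plus strand for Dusp6.
Ier3: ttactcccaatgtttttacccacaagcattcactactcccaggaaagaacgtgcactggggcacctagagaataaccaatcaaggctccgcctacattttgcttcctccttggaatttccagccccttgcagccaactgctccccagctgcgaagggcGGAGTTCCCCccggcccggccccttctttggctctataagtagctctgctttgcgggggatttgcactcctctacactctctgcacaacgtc
Dusp2: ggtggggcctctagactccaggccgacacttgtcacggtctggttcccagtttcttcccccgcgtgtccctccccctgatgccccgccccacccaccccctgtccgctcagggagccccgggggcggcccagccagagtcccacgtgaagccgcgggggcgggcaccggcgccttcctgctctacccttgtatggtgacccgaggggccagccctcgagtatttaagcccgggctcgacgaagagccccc
Dusp1: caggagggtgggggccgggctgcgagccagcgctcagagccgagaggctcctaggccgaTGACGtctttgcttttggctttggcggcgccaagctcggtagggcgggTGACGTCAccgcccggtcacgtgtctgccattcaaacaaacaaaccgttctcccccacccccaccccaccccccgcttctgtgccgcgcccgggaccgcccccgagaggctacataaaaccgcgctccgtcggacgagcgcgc
Dusp6: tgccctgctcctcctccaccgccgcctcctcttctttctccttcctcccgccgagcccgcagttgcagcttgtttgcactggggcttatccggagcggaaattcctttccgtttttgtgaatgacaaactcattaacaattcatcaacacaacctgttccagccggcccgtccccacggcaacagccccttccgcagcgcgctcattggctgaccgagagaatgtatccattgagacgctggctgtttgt

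Each window was searched on both strands for the NF-kB consensus, the CArG box bound by SRF, the cyclic AMP response element (CRE) TGACGTCA, its core TGACG, the EGR motif GCGTGGGCG and the AP-1 motif TGANTCA, where a CRE also counts as a match of its core on each strand. The capitals in Ier3 mark its only match, an NF-kB consensus that begins 92 bases before the start. That consensus was present in 7.25% of the 32851 RefSeq promoter windows of the same length. Dusp1 held a CRE that begins 143 bases before the start, and a further copy of the core at 191 bases before it. A CRE was present in 1.55% of all windows and its core in 17.8%. Dusp2 and Dusp6 held no match to any of the 6 motifs. The CArG box was present in 1.47% of all windows, the EGR motif in 0.536% and the AP-1 motif in 6.75%. The matching window of Dusp5, not printed here, held CArG matches at 82 and 72 bases before the start and the CRE core at 55 bases before it. Egr2, which was lower with LPS, has several RefSeq starts. The most upstream of its windows searched held NF-kB consensus matches at 117 and 116 bases before the start, which overlap in 1 stretch. Each of its other windows held 1 CArG box, and all of these but the most upstream also held the CRE core at 2 places. A match is a description of the letters and was not tested as a binding site.

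The libraries held 8.64 to 13.54 M counts (M, 1e6), with the lowest totals in replicate 1 of both WT groups, and a count of 3, taken as the floor, corresponds to 0.222 to 0.347 counts per 1e6 counts (CPM). Values are CPM scaled by TMM over all 12 libraries and are listed in the order of replicates 1, 2 and 3. Dot1l itself did not pass the test between genotypes: it had 65.3 to 73.3 CPM in LPS-treated KO cells and 60.6 to 69.2 CPM in LPS-treated WT cells (log2 fold change 0.07, adjusted p = 0.754), and 85.8 to 97.8 CPM in untreated KO cells and 82.4 to 111 CPM in untreated WT cells (-0.15, adjusted p = 0.902). The deleted stretch is not given in the sources used here, and counts over the whole transcript therefore do not check the labels. Lyz2 was lower in LPS-treated KO than in LPS-treated WT cells by a log2 fold change of -1.17 ± 0.10 (standard error; adjusted p = 0.00143). Between untreated KO and WT cells its change was -1.16 ± 0.11, which did not pass the test (adjusted p = 0.0784). Macrophage markers (Adgre1, Csf1r, Cd68, Itgam, Mertk, Cd14, Fcgr1 and C5ar1) summed to 7420 to 8300 CPM in LPS-treated KO, 7000 to 8660 CPM in LPS-treated WT, 5350 to 5810 CPM in untreated KO and 5050 to 6310 CPM in untreated WT libraries, and lymphocyte markers summed to under 1 CPM in every library.

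**Figure D1:**
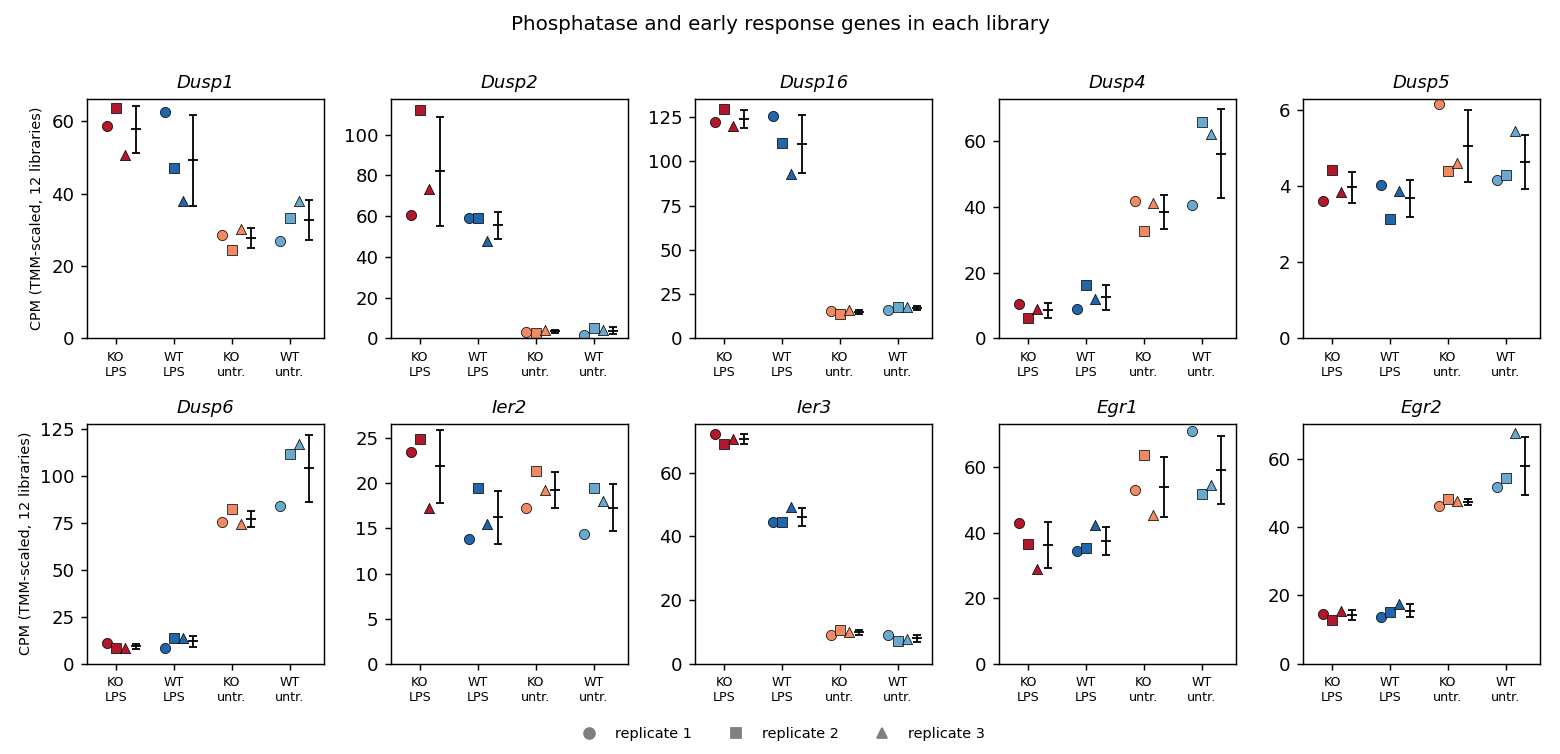
Level of each gene in every library, in TMM-scaled CPM on axes that start at 0, with the 4 groups from left to right and the bars at mean ± SD (n = 3). Dusp2, Dusp16 and Ier3 sit far higher in the LPS-treated groups, Dusp4, Dusp6 and Egr2 far lower, and the KO and WT points of Ier3 with LPS do not overlap.

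After 3 hours of LPS, the 6 phosphatase genes went in opposite directions. Dusp2, Dusp16 and Dusp1 rose, Dusp4 and Dusp6 fell, and Dusp5 did not pass the test, in KO and in WT cells. The rise of Dusp1 in WT cells, counted here among the genes that rose, was not called under several alternatives given below. Of all 10 genes, 4 rose and 4 fell in KO cells, where 30.3% of the 11984 genes tested rose and 30.9% fell. In WT cells 4 rose and 4 fell as well, where 27.6% of the genes tested rose and 29.8% fell. The median size of the log2 change, without its sign, was 1.95 for the 10 genes and 0.51 for all genes in KO cells, and 2.02 and 0.48 in WT cells. All adjusted p-values are from edgeR's quasi-likelihood F test with Benjamini-Hochberg adjustment over all genes tested, and values after ± are standard errors of log2 fold changes unless called SD. In cultures measured as a whole, fewer cells that express a gene and less RNA per cell cannot be told apart.

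Dusp2 encodes PAC-1, an inducible phosphatase of the nucleus. It had 60.6, 112 and 73.1 CPM in LPS-treated KO cells, against 3.42, 2.94 and 4.35 CPM in untreated KO cells. In the WT groups the values were 59.3, 59.3 and 47.8 CPM with LPS, against 1.94, 5.27 and 4.13 CPM untreated. Every LPS-treated library was far above every untreated one, and the KO replicates with LPS were spread widely, with a coefficient of variation of 32.8% where counting alone gives 3.43%. The log2 fold change with LPS was 4.51 ± 0.29 in KO cells (22.8-fold, adjusted p = 9.67e-09) and 3.83 ± 0.29 in WT cells (14.2-fold, adjusted p = 6.45e-08).

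Dusp16 encodes MKP-7, which acts mainly on JNK and p38. It had 122, 129.6 and 120 CPM in LPS-treated KO cells, against 15.8, 13.9 and 15.9 CPM in untreated KO cells. In WT cells it had 126, 110.2 and 92.9 CPM with LPS, against 15.96, 17.99 and 17.6 CPM untreated. The groups were far apart in each genotype. Replicates were close to each other except in LPS-treated WT cells, with a coefficient of variation of 15% where counting alone gives 3.33%. Dusp16 rose by 3.03 ± 0.11 on the log2 scale in KO cells (8.14-fold, adjusted p = 3.14e-11) and by 2.67 ± 0.11 in WT cells (6.35-fold, adjusted p = 1.26e-10). The annotated genes Gm36328 and 1700055D16Rik overlap it, and since the strand setting of the counting is not given, their reads cannot be told apart from those of Dusp16.

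Dusp1 encodes MKP-1, the phosphatase best known for restraining p38 and JNK in LPS-treated macrophages. It had 58.8, 63.7 and 50.8 CPM in LPS-treated KO cells, against 28.6, 24.6 and 30.2 CPM in untreated KO cells. WT cells had 62.6, 47.2 and 37.9 CPM with LPS, against 27.0, 33.4 and 37.96 CPM untreated. The KO groups did not overlap, whereas the lowest WT library with LPS lay just under the highest untreated WT library. In KO cells Dusp1 rose by 1.055 ± 0.17 on the log2 scale (2.08-fold, adjusted p = 9.52e-05). In WT cells the change was 0.58 ± 0.17 (adjusted p = 0.0102). The WT call was lost in the fit with the replicate number as a block (0.55, adjusted p = 0.12), without replicate 1 of the LPS-treated WT group (0.38, adjusted p = 0.0547) and with upper-quartile scaling (0.34, adjusted p = 0.0973). With library totals in place of TMM factors the WT change was 0.02 (adjusted p = 0.926).

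Dusp6 encodes MKP-3, the ERK-selective phosphatase of the cytoplasm. It had 10.8, 8.49 and 8.55 CPM in LPS-treated KO cells, against 75.3, 82.1 and 74.2 CPM in untreated KO cells. In the WT groups the values were 8.54, 13.4 and 13.7 CPM with LPS, against 83.7, 111 and 117 CPM untreated. It was the most reduced of the 10 genes in both genotypes, with no overlap between treated and untreated libraries. Dusp6 fell by 3.05 ± 0.17 on the log2 scale in KO cells (adjusted p = 1.85e-09) and by 3.11 ± 0.17 in WT cells (adjusted p = 1.74e-09), to 0.121 and 0.116 of its untreated level. The predicted gene Gm34921 overlaps it on the opposite strand, and reads of the pair cannot be told apart.

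Dusp4 encodes MKP-2, a nuclear phosphatase of ERK, JNK and p38. It had 10.4, 6.09 and 9.02 CPM in LPS-treated KO cells, against 41.7, 32.5 and 41.0 CPM in untreated KO cells. In WT cells it had 8.99, 16.4 and 11.9 CPM with LPS, against 40.5, 65.5 and 62.0 CPM untreated. All treated libraries were well below all untreated ones. Dusp4 fell by 2.18 ± 0.24 on the log2 scale in KO cells (adjusted p = 2.75e-06) and fell by 2.15 ± 0.24 in WT cells (adjusted p = 2.92e-06).

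Dusp5, a nuclear phosphatase selective for ERK, was the most weakly expressed of the 10 genes in reads, with 627 reads over all libraries. It had 3.63, 4.43 and 3.85 CPM in LPS-treated KO cells, against 6.15, 4.41 and 4.61 CPM in untreated KO cells. WT cells had 4.05, 3.13 and 3.87 CPM with LPS, against 4.16, 4.29 and 5.46 CPM untreated. The WT groups did not overlap and the KO groups did, by a narrow margin. The log2 change was -0.36 in KO cells (95% interval -0.76 to 0.05, adjusted p = 0.117) and -0.35 in WT cells (-0.79 to 0.09, adjusted p = 0.159). It was called lower with library totals (-0.95 in KO and -0.90 in WT cells, adjusted p = 4.76e-04 and 0.00136). In KO cells it was also called lower with upper-quartile scaling. In WT cells that scaling called 1 gene, either Dusp5 or Ier2, that was not called with TMM.

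Among the early response genes, Ier3 rose, Egr2 and Egr1 fell, and Ier2 did not pass the test. Ier3 encodes IEX-1, a stress-induced protein known as an NF-kB target that modulates ERK signalling and cell survival. It had 72.0, 68.9 and 70.6 CPM in LPS-treated KO cells, against 9.01, 10.7 and 9.94 CPM in untreated KO cells. In the WT groups the values were 44.5, 44.4 and 49.3 CPM with LPS, against 8.998, 6.96 and 7.89 CPM untreated. The treated and untreated libraries were far apart, and replicates of a group were tightly grouped. Ier3 rose by 2.84 ± 0.11 on the log2 scale in KO cells (7.14-fold, adjusted p = 3.64e-11) and by 2.54 ± 0.11 in WT cells (5.82-fold, adjusted p = 1.76e-10).

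Egr2 encodes a zinc finger transcription factor of the early growth response family that is expressed in resting macrophages. It had 14.7, 12.7 and 15.3 CPM in LPS-treated KO cells, against 46.2, 48.2 and 47.7 CPM in untreated KO cells. In WT cells it had 13.8, 15.3 and 17.5 CPM with LPS, against 51.8, 54.3 and 67.5 CPM untreated. Treated libraries were well below untreated ones in each genotype. Egr2 fell by 1.73 ± 0.12 on the log2 scale in KO cells (adjusted p = 2.61e-08) and by 1.89 ± 0.13 in WT cells (adjusted p = 1.38e-08). The predicted gene Gm32255 overlaps it on the opposite strand.

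Egr1, the founding member of the same family, had 43.0, 36.6 and 29.0 CPM in LPS-treated KO cells, against 53.0, 63.8 and 45.4 CPM in untreated KO cells. WT cells had 34.5, 35.4 and 42.3 CPM with LPS, against 71.2, 51.9 and 54.7 CPM untreated. The treated libraries were lower in each genotype, but by a small margin. Egr1 fell by 0.58 ± 0.17 on the log2 scale in KO cells (adjusted p = 0.0077) and by 0.66 ± 0.17 in WT cells (adjusted p = 0.00385). Without replicate 1 of both WT groups the WT change was -0.44 (adjusted p = 0.0679).

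Ier2, an early response gene whose product acts in the nucleus, had 23.5, 24.9 and 17.3 CPM in LPS-treated KO cells, against 17.3, 21.3 and 19.2 CPM in untreated KO cells. In the WT groups the values were 13.8, 19.5 and 15.5 CPM with LPS, against 14.4, 19.5 and 18.1 CPM untreated. The groups overlapped throughout. The log2 change was 0.19 in KO cells (95% interval -0.17 to 0.54, adjusted p = 0.344) and -0.09 in WT cells (-0.46 to 0.28, adjusted p = 0.687), and with library totals it was -0.41 in KO cells (adjusted p = 0.0454) and -0.63 in WT cells (adjusted p = 0.00613).

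The choice of scaling matters for all LPS changes. TMM factors were 1.15 to 1.26 in untreated and 0.772 to 0.847 in LPS-treated libraries, so that library totals in their place moved the median log2 change of all genes to -0.62 in KO and -0.59 in WT cells, against -0.02 and -0.05 with TMM. Among called genes the share that was higher with LPS was 49.5% in KO and 48.1% in WT cells with TMM, 31.7% in both with upper-quartile scaling, and 18.5% and 18.4% with library totals. With library totals 4 of the 10 genes rose and 6 fell in KO cells, and 3 rose and 6 fell in WT cells. That scaling called 9600 of the 11984 genes tested in KO and 9344 in WT cells, so most genes of any list are called there. Dusp2, Dusp16, Ier3, Dusp4, Dusp6, Egr1 and Egr2 kept their direction and their call under each scaling tried.

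**Figure D2:**
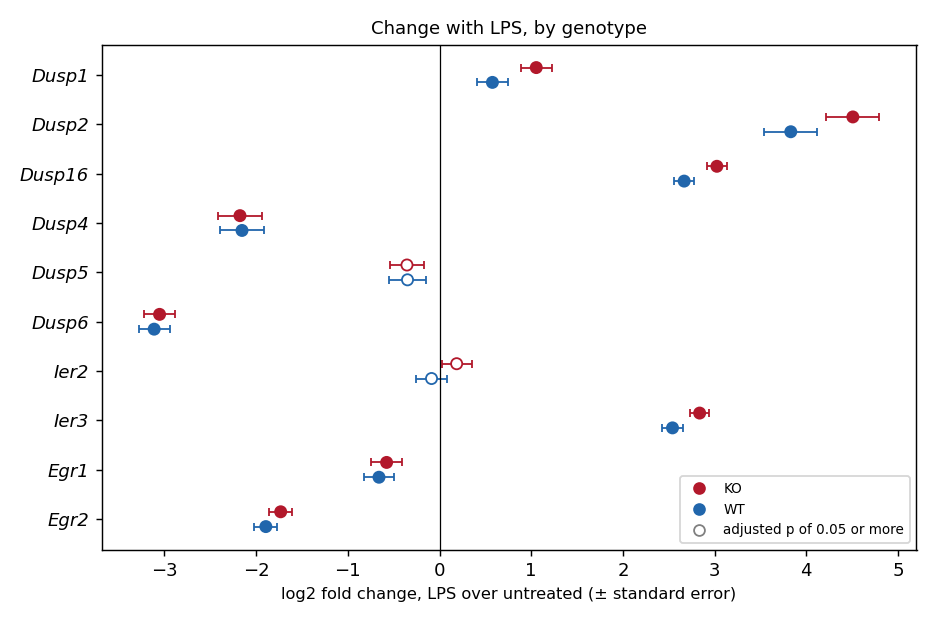
Log2 fold change with LPS over untreated for each gene in KO (upper point) and WT cells (lower point), with standard errors from the edgeR fit of all 12 libraries; open points have an adjusted p of 0.05 or more. Dusp2 is farthest to the right at 4.51 in KO and 3.83 in WT cells, and Dusp6 farthest to the left at -3.05 and -3.11.

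Per length, the authors' deposited RPKM values place Ier3 first of the 10 genes with LPS, at 47.8 ± 2.12 RPKM in KO and 30.5 ± 3.30 RPKM in WT cells (SD, n = 3). Dusp2, Dusp1 and Dusp16 came next, and the ranges of neighbours in this order overlapped for Ier3 and Dusp2 in KO cells and for Dusp1 and Dusp16 in WT cells. The lowest places with LPS went to Egr2, Dusp4, Dusp5 and Dusp6, with overlapping ranges between neighbours in the order of each genotype. In untreated cells Dusp6 came first, at 30.6 ± 1.20 RPKM in KO and 39.5 ± 8.53 RPKM in WT cells. Dusp2 came last there, at 2.46 ± 0.53 and 2.51 ± 1.20 RPKM, with a range that overlapped that of Dusp16. After Dusp6 the untreated KO order was Egr1, Egr2, Dusp4, Dusp1 and Ier2 and the untreated WT order Dusp4, Egr2, Egr1, Dusp1 and Ier2, with overlapping ranges between neighbours in both.

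Within a library, the share of each gene in the summed RPKM of the 6 phosphatases does not depend on how libraries are scaled. Dusp4 and Dusp6 together made up 6.13% ± 1.94 of that sum in LPS-treated KO and 10.2% ± 3.21 in LPS-treated WT libraries, against 64.6% ± 2.12 in untreated KO and 69.3% ± 1.31 in untreated WT libraries (SD, n = 3 each). Dusp1, Dusp2 and Dusp16 together made up 90.9% ± 2.09 in LPS-treated KO and 86.3% ± 3.37 in LPS-treated WT libraries, against 28.9% ± 2.03 in untreated KO and 26.1% ± 0.63 in untreated WT libraries. Among these 6 phosphatases alone, the transcripts were thus mostly Dusp2, Dusp1 and Dusp16 with LPS, and mostly Dusp4 and Dusp6 in untreated cells. Dusp2 alone took 43.4% ± 7.12 in LPS-treated KO and 36.7% ± 1.28 in LPS-treated WT libraries, against 3.27% ± 0.57 in untreated KO and 2.61% ± 0.85 in untreated WT libraries.

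**Figure D3:**
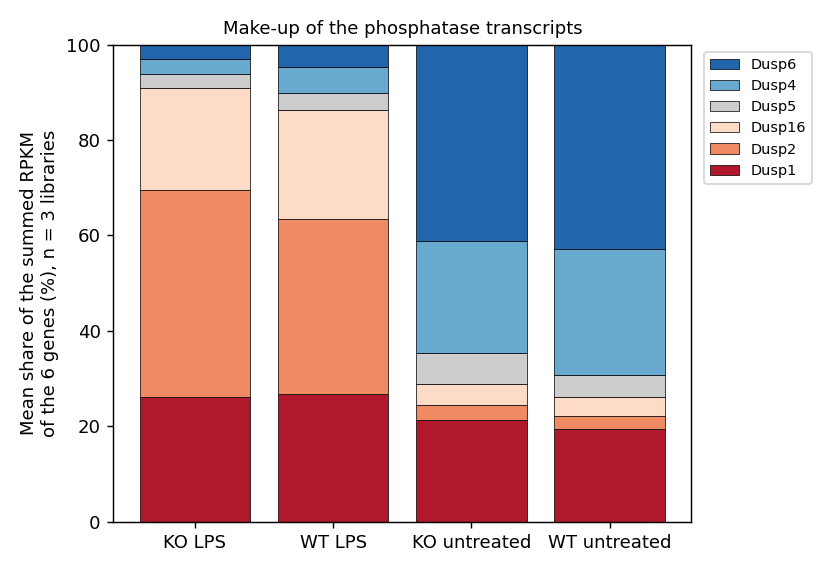
Mean share (%) of each of the 6 phosphatase genes in their summed RPKM, stacked to 100% for each group of 3 libraries. The blue segments, Dusp6 and Dusp4, fill 64.6% and 69.3% of the untreated KO and WT bars and 6.13% and 10.2% of the LPS-treated KO and WT bars.

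Between genotypes, Ier3 was the only one of the 10 genes that passed the test, and it did so in LPS-treated cells, where it was higher in KO. It stood at 70.5 ± 1.57 CPM in LPS-treated KO and 46.0 ± 2.78 CPM in LPS-treated WT cells (SD, n = 3 each), and each KO library was above each WT library. The log2 fold change was 0.60 ± 0.09 (1.52-fold, adjusted p = 0.00874). Of the 11264 genes tested with LPS, 1% were higher and 0.124% lower in KO cells, against 1 and 0 of the 10. Leaving out each of the 6 libraries in turn gave changes of 0.57 to 0.66, and the call was lost without KO replicate 1 (adjusted p = 0.0565) or KO replicate 3 (adjusted p = 0.0704). Among markers of other cell types, the monocyte markers Ly6c2, Ccr2, Vcan and F13a1 summed to 276 to 286 CPM in LPS-treated KO and 172 to 238 CPM in LPS-treated WT libraries, with no overlap. Of these, Vcan was called higher in KO, with a log2 fold change of 0.51 ± 0.10 (adjusted p = 0.0407), while F13a1 was at 0.81 (adjusted p = 0.361), Ccr2 at 0.07 (adjusted p = 0.933) and Ly6c2 at -0.01 (adjusted p = 0.997). The megakaryocyte markers Pf4 and Itga2b summed to 176 to 252 CPM in LPS-treated KO and 135 to 142 CPM in LPS-treated WT libraries, again with no overlap. Itga2b did not pass the filter on low counts, so this difference rests on Pf4, which was at 0.57 ± 0.12 (adjusted p = 0.0519). The haemoglobin genes Hba-a1 and Hbb-bs were at 0 in every library. Dendritic cell markers, none of them called, summed to 16.8 to 19.4 CPM in LPS-treated KO and 9.74 to 16.8 CPM in LPS-treated WT libraries. Stromal markers summed to 4.52 to 7.71 CPM in LPS-treated KO and 1.82 to 4.05 CPM in LPS-treated WT libraries. Neutrophil markers overlapped, at 24.9 to 39.7 CPM in LPS-treated KO and 19.9 to 48.7 CPM in LPS-treated WT libraries. The part of these cell types in the Ier3 difference was not tested.

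The other 9 genes did not pass the test between genotypes with LPS. Dusp2 was the other gene whose groups did not overlap, at 81.9 ± 26.8 CPM in LPS-treated KO and 55.5 ± 6.67 CPM in LPS-treated WT cells (log2 fold change 0.55, 95% interval 0.12 to 0.99, adjusted p = 0.241). Groups did not overlap in 2 of the 10 genes and in 20.8% of all genes tested. Ier2 was 0.41 higher on the log2 scale (0.04 to 0.78, adjusted p = 0.307), Dusp4 was -0.58 (-1.10 to -0.06, adjusted p = 0.311) and Dusp6 was -0.38 (-0.80 to 0.04, adjusted p = 0.412). Dusp1 was 0.23 (-0.12 to 0.58, adjusted p = 0.547), and without replicate 1 of the LPS-treated WT group it was called higher at 0.43 (adjusted p = 0.034). That fit called 545 genes in all, against 127 with all 6 libraries. Dusp16, Dusp5, Egr1 and Egr2 lay between -0.14 and 0.17, with intervals that held 0.

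Without LPS no gene was called between genotypes by edgeR, 0% of the 11622 tested, although 841 genes had an unadjusted p under 0.05, and DESeq2 called 49 and limma-voom 0. The groups did not overlap in 3 of the 10 genes and in 14.7% of all genes tested. Dusp6 was at 77.2 ± 4.30 CPM in untreated KO and 104 ± 17.9 CPM in untreated WT cells (SD, n = 3 each; log2 fold change -0.41, 95% interval -0.71 to -0.12, adjusted p = 0.475). Egr2 was at 47.4 ± 1.0 CPM in untreated KO and 57.9 ± 8.46 CPM in untreated WT cells (-0.27, -0.53 to -0.01, adjusted p = 0.673). Ier3 was at 9.88 ± 0.83 CPM in untreated KO and 7.95 ± 1.02 CPM in untreated WT cells (0.34, 0.004 to 0.67, adjusted p = 0.69). Dusp4, whose groups overlapped, was at 38.4 ± 5.14 CPM in untreated KO and 56.0 ± 13.5 CPM in untreated WT cells (-0.52, -0.95 to -0.10, adjusted p = 0.566).

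The untreated comparison turned on a single library. Replicate 1 of the untreated WT group had the lowest level of its group in 8 of the 10 genes and had fewer counts than any other untreated library. How many of all genes were lowest in that library was not counted, so the 8 of 10 cannot be read as a trait of these genes. Without it, Dusp4 was called lower in KO cells at -0.70 (adjusted p = 7.51e-04), Dusp6 at -0.54 (adjusted p = 9.94e-05) and Egr2 at -0.34 (adjusted p = 0.0309). That fit called 749 genes in all, 3 of the 10 genes among them, against 0 of the 11622 tested with all 6 libraries. The number of genes tested in that fit is not given here, so no share of all genes stands beside these calls. The 4 monocyte markers summed to 54.1 to 85.9 CPM in untreated KO and 31.8 to 84.5 CPM in untreated WT libraries. Pf4 and Itga2b summed to 134 to 157 CPM in untreated KO and 89.3 to 101 CPM in untreated WT libraries, and here too only Pf4 passed the filter on low counts. The part of these cell types in the differences above was not tested.

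**Figure D4:**
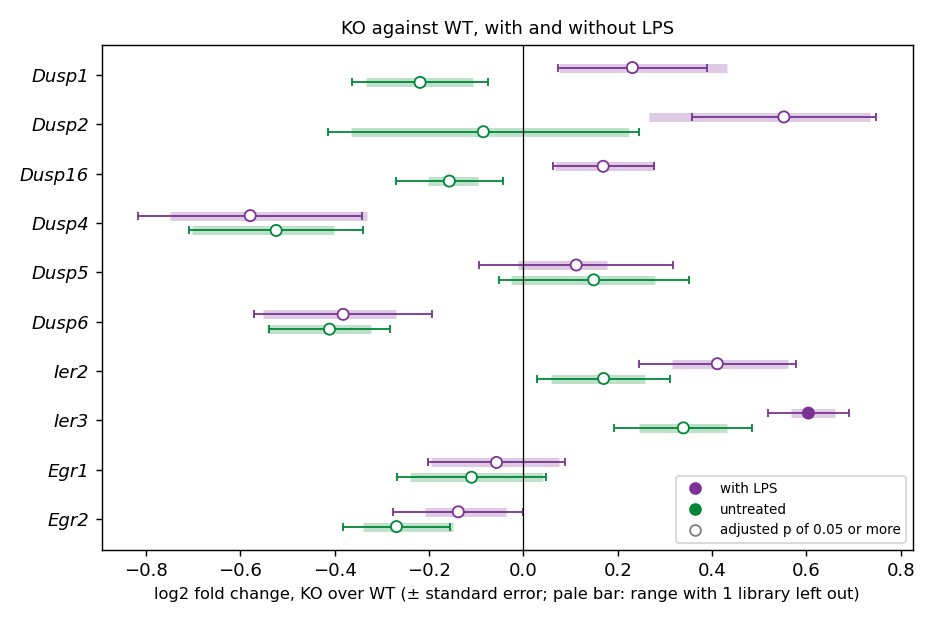
Log2 fold change of KO over WT cells for each gene, with LPS (upper point) and untreated (lower point), with standard errors; pale bars span the values with each of the 6 libraries left out in turn, and filled points have an adjusted p under 0.05. Ier3 with LPS, at 0.60, is the only filled point.

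Whether the response to LPS itself differed between genotypes was tested as an interaction over all 12 libraries. No gene was called by edgeR, 0% of the 11984 tested and 0 of the 10, while 288 genes had an unadjusted p under 0.05, and DESeq2 and limma-voom each called 0. The KO response exceeded the WT response by 0.68 on the log2 scale for Dusp2 (95% interval -0.21 to 1.56), 0.48 for Dusp1 (-0.04 to 0.99), 0.36 for Dusp16 (0.03 to 0.69) and 0.30 for Ier3 (-0.03 to 0.62), each with an adjusted p of 1. It was 0.27 for Ier2 and 0.16 for Egr2, and for Dusp4, Dusp5, Dusp6 and Egr1 it lay between -0.02 and 0.08. These values rest on the same libraries as the LPS and genotype comparisons and are no separate evidence.

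The other genes of the pathway were counted from lists of related genes. Their median log2 changes with LPS in KO and WT cells were -1.08 and -1.14 for other MAPK phosphatases, 0.046 and 0.065 for other dual-specificity phosphatases, 0.39 and 0.24 for MAPK cascade kinases, -0.19 and -0.24 for other immediate-early genes and -0.26 and -0.36 for ERK feedback genes and EGR cofactors, beside -0.02 and -0.05 for all genes tested. Of 4 other MAPK phosphatases tested (Dusp7, Dusp8, Dusp9 and Dusp10), 2 fell with LPS in KO and 3 in WT cells, and none rose in either. With library totals 3 fell in each genotype and none rose. Dusp7, a cytoplasmic relative of Dusp6, had 22.8, 21.4 and 21.3 CPM in LPS-treated KO cells, against 68.1, 71.0 and 72.3 CPM in untreated KO cells. It fell by 1.69 ± 0.08 on the log2 scale in KO cells (adjusted p = 3.21e-10) and by 1.89 ± 0.08 in WT cells (adjusted p = 1.27e-10). Dusp9 fell by 1.32 ± 0.29 in KO cells (adjusted p = 0.00135) and by 0.85 ± 0.33 in WT cells (adjusted p = 0.0385). Dusp8 was at -0.83 ± 0.36 in KO cells (adjusted p = 0.0613) and fell by 1.43 ± 0.42 in WT cells (adjusted p = 0.00947). Its LPS-treated WT libraries held only 4, 6 and 3 reads, at or near the floor of 3 counts, which limits this call.

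Of 10 other dual-specificity phosphatases tested, most of them not known as MAPK phosphatases, 3 rose and 3 fell in KO cells, and 3 rose and 4 fell in WT cells. With library totals 3 rose and 6 fell in KO cells, and 2 rose and 5 fell in WT cells. Dusp18 fell by 3.17 ± 0.23 on the log2 scale in KO cells (adjusted p = 3.49e-08) and by 3.57 ± 0.26 in WT cells (adjusted p = 3.76e-08). Dusp3, which encodes the small phosphatase VHR, fell by 0.93 ± 0.08 in KO cells (adjusted p = 1.94e-07) and by 0.93 ± 0.08 in WT cells (adjusted p = 2.22e-07). Dusp11, an RNA phosphatase, rose by 0.75 ± 0.08 in KO cells (adjusted p = 3.22e-06) and by 0.71 ± 0.09 in WT cells (adjusted p = 6.5e-06).

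Of 27 MAPK cascade kinases tested, 14 rose and 6 fell with LPS in each genotype. With library totals 7 rose and 14 fell in KO cells and 6 rose and 13 fell in WT cells. The balance of this list thus turned with the scaling, as did that of all called genes, of which 18.5% rose in KO and 18.4% in WT cells with library totals. Map3k8, which encodes the kinase TPL2 that links TLR4 to ERK, had 141, 149.6 and 138 CPM in LPS-treated KO cells, against 13.9, 14.6 and 14.8 CPM in untreated KO cells. It rose by 3.31 ± 0.10 on the log2 scale in KO cells (adjusted p = 6.04e-12) and by 3.14 ± 0.10 in WT cells (adjusted p = 1.27e-11). Mapkapk2, which encodes MK2, the kinase downstream of p38, rose by 2.65 ± 0.11 in KO cells (adjusted p = 1.24e-10) and by 2.62 ± 0.11 in WT cells (adjusted p = 1.62e-10). Map3k5, which encodes the stress kinase ASK1, rose by 2.09 ± 0.09 in KO cells (adjusted p = 1.06e-10) and by 1.697 ± 0.09 in WT cells (adjusted p = 1.02e-09).

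Of 28 other immediate-early genes tested, 12 rose and 14 fell in KO cells, and 11 rose and 13 fell in WT cells. With library totals 11 rose and 16 fell in KO cells, and 10 rose and 16 fell in WT cells. Gadd45b, a stress gene induced by NF-kB, rose by 3.62 ± 0.09 on the log2 scale in KO cells (adjusted p = 6.4e-13) and by 3.53 ± 0.09 in WT cells (adjusted p = 9.78e-13). Csrnp1 rose by 5.06 ± 0.17 in KO cells (adjusted p = 1.2e-11), and Ppp1r15a, which encodes the stress protein GADD34, rose by 2.60 ± 0.09 in WT cells (adjusted p = 1.43e-11). Nr4a3, an orphan nuclear receptor, had 65.9, 61.0 and 72.4 CPM in LPS-treated KO cells, against 42.6, 46.3 and 32.8 CPM in LPS-treated WT cells, while no untreated library exceeded 0.581 CPM. Nr4a3 was the one listed gene outside the 10 that was called between genotypes, with a log2 fold change of 0.71 ± 0.13 with LPS (adjusted p = 0.0279). The lists, in the order of their medians above, held 3, 9, 27, 23 and 14 genes tested in that comparison. Of all 11264 genes tested there, 1% were higher and 0.124% lower in KO cells. While these named genes rose with LPS, Egr3 of the same list fell by 3.30 ± 0.24 in KO cells (adjusted p = 2.92e-08) and by 3.42 ± 0.25 in WT cells (adjusted p = 4.39e-08).

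Of 14 ERK feedback genes and EGR cofactors tested, 5 rose and 6 fell with LPS in KO cells, and 4 rose and 7 fell in WT cells. With library totals 2 rose and 10 fell in each genotype. Spred1, an inhibitor of the Ras to ERK pathway, rose by 2.33 ± 0.11 on the log2 scale in KO cells (adjusted p = 2.53e-10) and by 2.08 ± 0.11 in WT cells (adjusted p = 8.53e-10). Errfi1, a feedback inhibitor of the EGF receptor, rose by 2.12 ± 0.14 in KO cells (adjusted p = 1.52e-08) and by 1.60 ± 0.15 in WT cells (adjusted p = 4.58e-07). Nab2, a corepressor bound by EGR proteins, fell by 1.39 ± 0.10 in KO cells (adjusted p = 3.1e-08) and fell by 1.285 ± 0.10 in WT cells (adjusted p = 9.31e-08). Dusp6, Egr2, Egr1 and Nab2 were thus lower with LPS while Spred1 and Errfi1 were higher. Other genes of this list fell: Spry2 was at -1.22 in KO and -1.05 in WT cells, Spred3 at -1.45 and -1.28, and Etv5 at -1.67 and -1.45, each called. The list of ERK feedback genes thus went both ways.

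**Figure D5:**
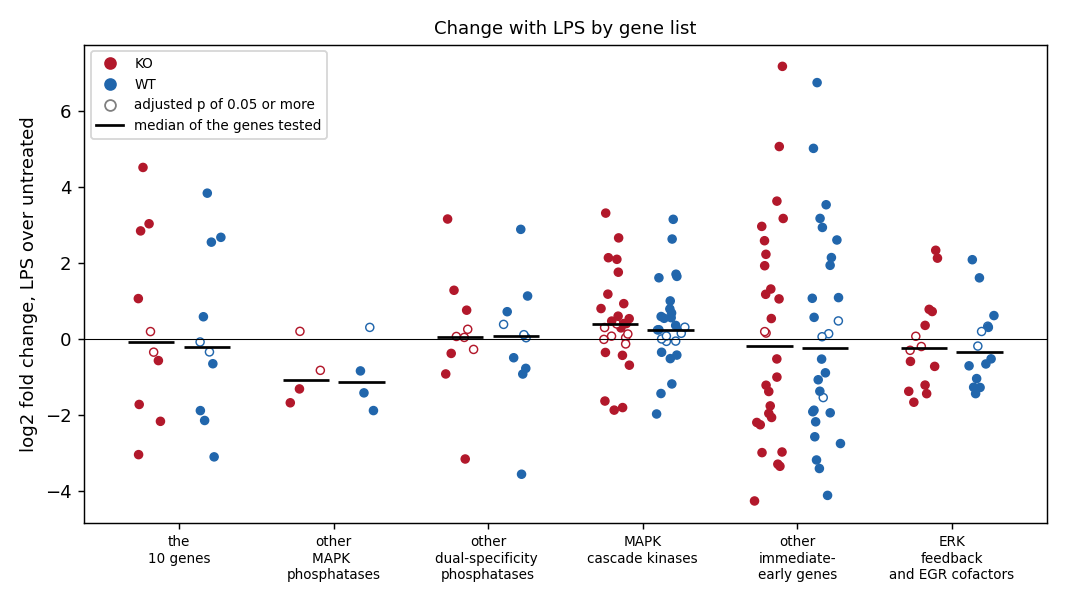
Log2 fold change with LPS over untreated for every tested gene of the 10 described and of the 5 lists, KO cells left and WT cells right in each pair; open points have an adjusted p of 0.05 or more and bars are medians. Points of every list except the other MAPK phosphatases lie on both sides of 0 among the called genes.

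The gene outside the 10 whose profile was nearest to each was found by the root mean square difference of centred log2 CPM over the 12 libraries. Dusp16 had the closest match, Katna1, a subunit of the microtubule-severing enzyme katanin, at 0.10 log2 units, and Katna1 rose by 2.90 on the log2 scale in KO and 2.73 in WT cells. The nearest to Dusp2 was Hcar2, a receptor for niacin, at 0.30, with rises of 4.25 in KO and 3.99 in WT cells. The nearest to Ier3 was Rras2, a Ras-related GTPase, at 0.18, which rose by 2.83 in KO and 2.53 in WT cells and was 0.37 higher in LPS-treated KO than in LPS-treated WT cells (adjusted p = 0.0813). The nearest to Dusp6 was Arhgap25 at 0.19, with changes of -3.23 in KO and -3.25 in WT cells. For the others the nearest were Zfp952 for Dusp1 (0.17), Speg for Dusp4 (0.25), Jcad for Dusp5 (0.13), Rab34 for Ier2 (0.12), Ttc17 for Egr1 (0.11) and Atmin for Egr2 (0.14). Among the 10 genes themselves the nearest pair was Dusp16 and Ier3, at 0.31.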

How the data were processed

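Poly(A) mRNA-seq libraries of 12 macrophage cultures were sequenced single-end at 50 base pairs, per the labels' protocols. SAMtools 1.3.1, STAR 2.5.2b and the build mm10 appear in the submitters' processing notes. Which tool counted the reads, with what strand setting and gene models, is not given in the sources used here. Raw read counts per RefSeq transcript were deposited, and RPKM values that the authors deposited beside them and that divide the counts by transcript length and 1 constant per library. Untreated and LPS-treated libraries stand in separate tables, whose raw counts were joined.

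Reads of several isoforms appear once for each, so 1 transcript per gene, the one with the highest total count, was used. For Dusp16 and Egr2 the other transcript held 84.3% and 92.5% of its reads. RefSeq (GRCm38.p6) and GENCODE names were found for all but 117 of 35745 transcripts, which held 0.259% to 0.738% of the counts and were left out. Counts gave the tests: edgeR 4.0.16 (R 4.3.3) with filterByExpr, TMM and robust quasi-likelihood F tests, Benjamini-Hochberg adjustment and a threshold of 0.05. Genotypes were compared on the 6 libraries of each condition, and LPS responses and the interaction on all 12 as 4 groups. Standard errors are the log2 change over the square root of F, and 95% intervals use the t distribution with the moderated degrees of freedom. The code was tested on simulated data. Floors of 3 counts cover counting error only.

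The same replicate number within a genotype marked libraries that deviate together, from the data and not from a label: treated and untreated libraries of the same number correlated at 0.197 to 0.454 in KO and 0.298 to 0.567 in WT cells, over 0.1 in every pair. The blocked value is given where it changes a call.

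The 10 genes, the lists and the tests were chosen with earlier results of these data known. All 10 genes are described, and Dot1l and Lyz2 are given as checks. Of each list the counts and up to 3 called genes by smallest p are given, and for each gene the nearest other gene. Egr3, Spry2, Spred3 and Etv5 were added to these after their values were seen, as listed genes that fell. Promoter windows came from RefSeq for Dusp1, Dusp2, Dusp5, Dusp6, Dusp16, Ier3 and Egr2, and those of Dusp16 and Egr2 overlap other transcripts and are not shown. Alternatives were limma-voom (limma 3.58.1), DESeq2 1.42.0, other scalings and filters, the lowest transcript per gene, a replicate block, a fit of all 12 libraries and leaving out libraries. Some markers of the monocyte and of the erythroid and megakaryocyte lists are not reported here, and the sums given for those cell types cover the markers named, a choice made after their values were seen.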

Additional observations from a re-analysis of the deposited data

How the results depend on the processing

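Of 830 values of single genes recomputed under alternatives, 780 kept their direction and their side of the threshold, 33 turned sign, 9 became called and 8 lost a call. The values that turned sign were not called in the first fit. The interaction of Dusp5 was 0.001 with limma-voom. The LPS change of Ier2 in KO cells was 0.19 in the first fit, -0.41 with library totals and -0.078 with upper-quartile scaling. With library totals it was called lower (adjusted p = 0.0454), and it is counted above as a sign change only. Without replicate 1 of both WT groups, chosen after seeing the data, as were library totals and upper-quartile scaling, the interaction was 0.085 for Dusp5, -0.01 for Dusp6 and -0.15 for Egr1, and 24 genes were called. Leaving out each library in turn, untreated KO over WT changes ran from -0.37 to 0.22 for Dusp2, -0.027 to 0.279 for Dusp5 and -0.24 to 0.041 for Egr1. With LPS they ran from -0.011 to 0.178 for Dusp5 and -0.196 to 0.076 for Egr1. The LPS change of Ier2 in WT cells ran from -0.243 to 0.018. The interaction ran from -0.19 to 0.23 for Dusp4, -0.17 to 0.14 for Dusp5, -0.11 to 0.16 for Dusp6 and -0.10 to 0.22 for Egr1. The cause was not tested.

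Counts of genes called between untreated genotypes were 0 in the first fit, 9 with no filter, 49 with DESeq2, 27 in the fit of all 12 libraries, and 1 each with library totals and upper-quartile scaling. With 1 library left out they ran from 0 to 749, with 0 to 3 of the 10 genes among them. With LPS, 127 genes were called, against 276 with no filter, 265 with DESeq2 and 17 to 545 with 1 library left out, with 0 to 2 of the 10 genes among them. The replicate block gave 47 genes with LPS, Ier3 among them (0.61, adjusted p = 0.0466), and 0 untreated. Same-numbered KO and WT libraries share only a number: their deviations correlated at 0.055 to 0.264 untreated and at -0.029 to 0.194 with LPS, and in 2 of 3 numbers a library correlated best with its own. In the LPS comparisons the block changed no call of the 10 genes other than that of Dusp1 in WT cells. Genes at few reads, Dusp5 first of all, are limited by depth: counting alone gives a coefficient of variation of 18.1% for Dusp5 in LPS-treated WT libraries.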
